A study of Homo sapiens with 4 samples.

Results

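Chromatin accessibility was examined at 8 genes that encode epidermal transcription factors downstream of p63, namely ZNF750, GRHL1, GRHL2, GRHL3, OVOL1, TFAP2A, TFAP2C and PRDM1. A peak was assigned to a gene when its summit lay in the gene body or within 50 kb of any transcription start site (TSS) that GENCODE annotates for it. By this rule 91 of 101142 peaks of the control list and 97 of 109486 peaks of the p63 list belonged to these genes. At the threshold applied below, a −log10 q of at least 10, 54 of 56680 control regions and 64 of 62343 p63 regions remained.

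The cells were BJ fibroblasts, which are human dermal fibroblasts from foreskin. Accessibility was measured by ATAC-seq, in which a transposase inserts sequencing adapters into open DNA. All cells carried the reverse tetracycline-controlled transactivator rtTA and a retroviral TRE3G construct, and received doxycycline at 1 µg/ml for 72 h. In the control group (CTR, 2 samples) it encoded a Myc tag, a self-cleaving peptide and KLF4, and in the p63 group (2 samples) Myc-tagged ΔNp63α stood before that peptide and KLF4, so both groups expressed KLF4. The lines were polyclonal, and according to the methods each replicate was a further induction of the same lines. One peak list per group was deposited. According to the methods peaks were called from both replicates, but the peak names carry a pair of inputs that could also be the mates of a single library, so whether a read number covers both replicates is not settled. Replicates have no values of their own in these lists, so no spread between replicates and no p-value can be given, and all intervals below cover counting error only. In such bulk lists, opening in fewer cells and weaker opening in every cell cannot be told apart.

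p63 is the master regulator of stratified epithelia, and ΔNp63α is its main isoform in basal keratinocytes. It binds a response element closely related to that of p53, often in enhancers far from promoters, and it acts together with a set of further transcription factors. Among these, ZNF750 and PRDM1 (BLIMP1) act in terminal differentiation of the epidermis, the Grainyhead-like factors GRHL1, GRHL2 and GRHL3 control epithelial junctions and barrier formation, OVOL1 is a zinc finger repressor that restrains proliferation of epidermal progenitors, and the AP-2 factors TFAP2A and TFAP2C act in the early ectoderm and in keratinocytes.

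The sequences at or next to the summits of the regions on which the results turn are shown here (GRCh38, 5′ to 3′), each with its distance from the TSS of the canonical transcript. Capitals mark the p53/p63 family site, a stretch of 20 bp made of a tandem of decamers. The core C and G of each decamer had to match, and up to 3 of the remaining 16 positions could differ. The first set shows regions called in the p63 list only that held such a site, at OVOL1 and TFAP2A, with 2 mismatches each.
OVOL1 +4.7 kb (chr11:65791726-65791826, plus strand): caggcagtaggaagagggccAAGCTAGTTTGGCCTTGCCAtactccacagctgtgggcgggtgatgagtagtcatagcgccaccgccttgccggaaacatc
TFAP2A −16.5 kb (chr6:10431496-10431598, plus strand): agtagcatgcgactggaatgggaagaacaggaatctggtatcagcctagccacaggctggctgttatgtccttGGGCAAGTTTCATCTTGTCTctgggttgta
The 20 bases capitalised occurred 1 time each in the genome. Regions of the p63 list with a site that were open in both lists lay in PRDM1 (1 mismatch) and in TFAP2C (3 mismatches).
PRDM1 +12.3 kb (chr6:106098578-106098607, plus strand): ggaaaGTGCAAGTCTGGACATGTTTatcaa
TFAP2C +1.2 kb (chr20:56630417-56630517, plus strand): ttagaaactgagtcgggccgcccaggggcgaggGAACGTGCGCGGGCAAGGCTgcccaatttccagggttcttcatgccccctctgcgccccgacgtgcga
Below the threshold, sites of 3 mismatches were found at ZNF750 and next to the canonical start of GRHL3, where the CTR list had no peak.
ZNF750 +16.7 kb (chr17:82823231-82823345, plus strand): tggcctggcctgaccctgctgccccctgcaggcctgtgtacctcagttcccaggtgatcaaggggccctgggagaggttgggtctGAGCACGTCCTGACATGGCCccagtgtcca
GRHL3 +0.3 kb (chr1:24319707-24319736, plus strand): tacttTGGCGTGTCAAGGCAAGCCCcagtc
For the other members the p63-only region of the highest −log10 q is given to show what a region without a site looks like. The region at PRDM1 held the AP-1 motif TGANTCA, and those at GRHL1 and GRHL3 held none of the motifs examined.
GRHL1 +55.4 kb (chr2:10007038-10007138, plus strand): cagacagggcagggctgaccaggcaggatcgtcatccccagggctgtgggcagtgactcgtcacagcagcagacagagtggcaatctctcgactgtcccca
GRHL3 −3.8 kb (chr1:24315538-24315638, plus strand): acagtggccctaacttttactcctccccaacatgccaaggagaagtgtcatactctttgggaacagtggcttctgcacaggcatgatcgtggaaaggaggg
PRDM1 −3.4 kb (chr6:106082842-106082942, plus strand): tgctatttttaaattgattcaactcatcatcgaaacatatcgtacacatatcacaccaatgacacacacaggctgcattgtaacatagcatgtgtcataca
GRHL2 is described without sequence.

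Both lists carried the accessibility of fibroblasts. A region at the threshold lay within 1 kb of a TSS at 9 of 10 fibroblast markers in either list, with COL3A1 as the exception, against 2 of 10 keratinocyte markers in CTR (CDH1 and LAMB3) and 3 of 10 in p63 (EPCAM in addition). Regions lay at 2 of 5 melanocyte markers and 1 of 5 endothelial markers in either list, and at 3 of 5 leukocyte markers in CTR and 2 of 5 in p63. The number of reads over each summit (the pileup of the peak caller) was solved from the fold enrichment and −log10 p of each peak. The background coverage was 1.18 reads in CTR and 1.13 in p63, and ratios between the lists below were scaled by the quotient of 0.957. Deposited peaks had 6 reads or more, and those that passed the threshold 15 or more, so a region without a peak was not necessarily without reads.

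Of the 64 regions at the 8 genes in the p63 list, 48 overlapped a CTR region (shared) and 16 did not (p63-only), a share of 25% (95% Wilson interval 16 to 36.8). Over the whole p63 list this share was 23.9%, so p63-only regions were about as frequent at these genes as anywhere else. Of the 54 CTR regions, 6 were CTR-only, which is 11.1% (5.19 to 22.2) against 16.5% over the whole CTR list. In the p63 list 5 of the 16 had no CTR peak at any threshold, or 7.81% of the regions against 12.0% over the list, and 11 overlapped a CTR peak below the threshold. In the CTR list 2 of the 54 regions, both among the 6, had no p63 peak at all, beside 3.29% of the whole CTR list. The numbers depended on the definition, since with equal numbers of top-ranked peaks in both lists 9 regions and 15.8% were p63-only, beside 20.7% of the whole list.

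At least 1 p63-only region was found at 7 of the 8 members, the exception being ZNF750, and by the same rule at 58.2% of protein-coding genes. The members had a median of 8.5 regions in the p63 list against 5 for all protein-coding genes, and a median of 2 p63-only regions against 1. ZNF750 with 3 regions, and OVOL1 and TFAP2C with 4 each, lay below the median of all protein-coding genes. GRHL2 and GRHL3 had 4 p63-only regions each, a number reached by 5.92% of protein-coding genes. That share and the medians of all protein-coding genes cover genes of any length and number of TSSs. They were not matched to the members, among them the long gene bodies of GRHL2 and GRHL3. GRHL1, OVOL1 and TFAP2A had 2 each, and TFAP2C and PRDM1 had 1 each. CTR-only regions were found at GRHL3 (2), ZNF750, GRHL1, TFAP2A and PRDM1 (1 each), and at 41.9% of protein-coding genes. GRHL2, OVOL1 and TFAP2C had p63-only but no CTR-only regions, and ZNF750 had the reverse. No share of protein-coding genes with either pattern is given here. Whether the patterns set these members apart from other genes therefore cannot be said.

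**Figure D1:**
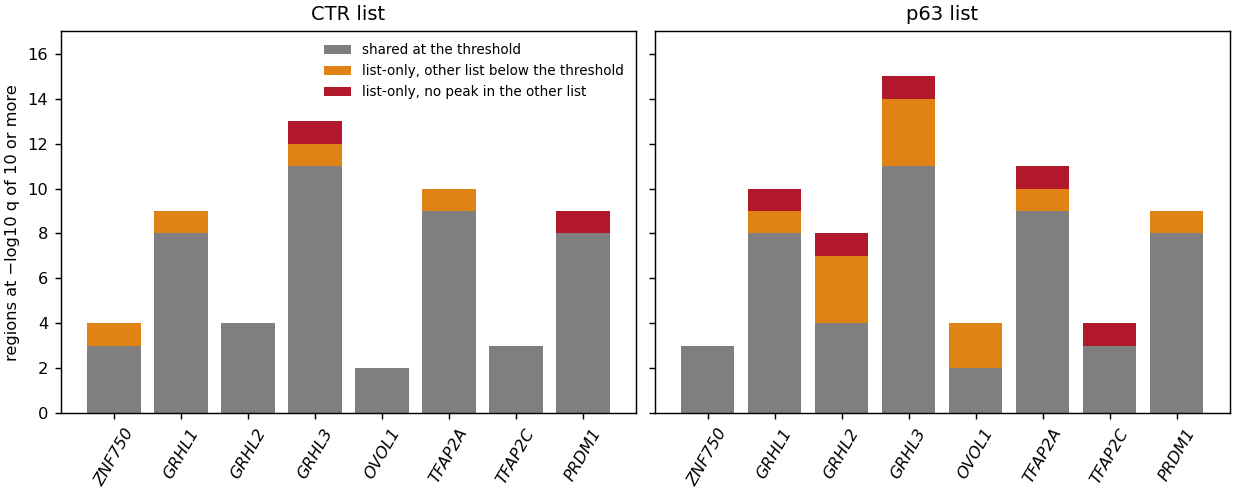
Regions at a −log10 q of 10 or more at each of the 8 genes, in the CTR list (left) and in the p63 list (right). Bars count regions and are stacked by class: shared between the lists, list-only although the other list had a peak under the threshold, and list-only with no peak in the other list. Shared regions made up most of every bar but those of GRHL2 and OVOL1 in the p63 list, where 4 of 8 and 2 of 4 were p63-only.

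Regions that passed the threshold in 1 list alone had lower medians than the shared regions, in both lists. The rule favours regions near the threshold in this class, although it sets no upper limit of height. The median pileup of the p63-only regions was 21 reads against 48 for the shared regions of the p63 list, their median −log10 q was 12.8 against 28.8, and their median width was 453 bp against 587 bp. Over the whole p63 list the medians were 22 against 39 reads, 14.5 against 27.6, and 405 bp against 596 bp. For the CTR-only regions of the 8 genes the medians were 21 against 44 reads, 12.2 against 28.5, and 261.5 bp against 580.5 bp. Of the 16 p63-only regions, 5 lay within 3 kb of an annotated TSS, 11 elsewhere in a gene and 0 between genes. For the 48 shared regions these numbers were 20, 21 and 7. The assignment rule takes in whole gene bodies, and no share over all regions is given beside these locations. Whether they set the p63-only regions of these genes apart from others therefore cannot be said. None of the 16 covered the canonical TSS of a member. Among the regions of these genes, the one closest above the threshold was at PRDM1 in the p63 list (−log10 q 10.5, 34 reads) and at GRHL3 in the CTR list (10.1, 29 reads). The one closest below was at GRHL1 in the p63 list (9.44, 21 reads) and at TFAP2A in the CTR list (9.58, 21 reads).

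**Figure D2:**
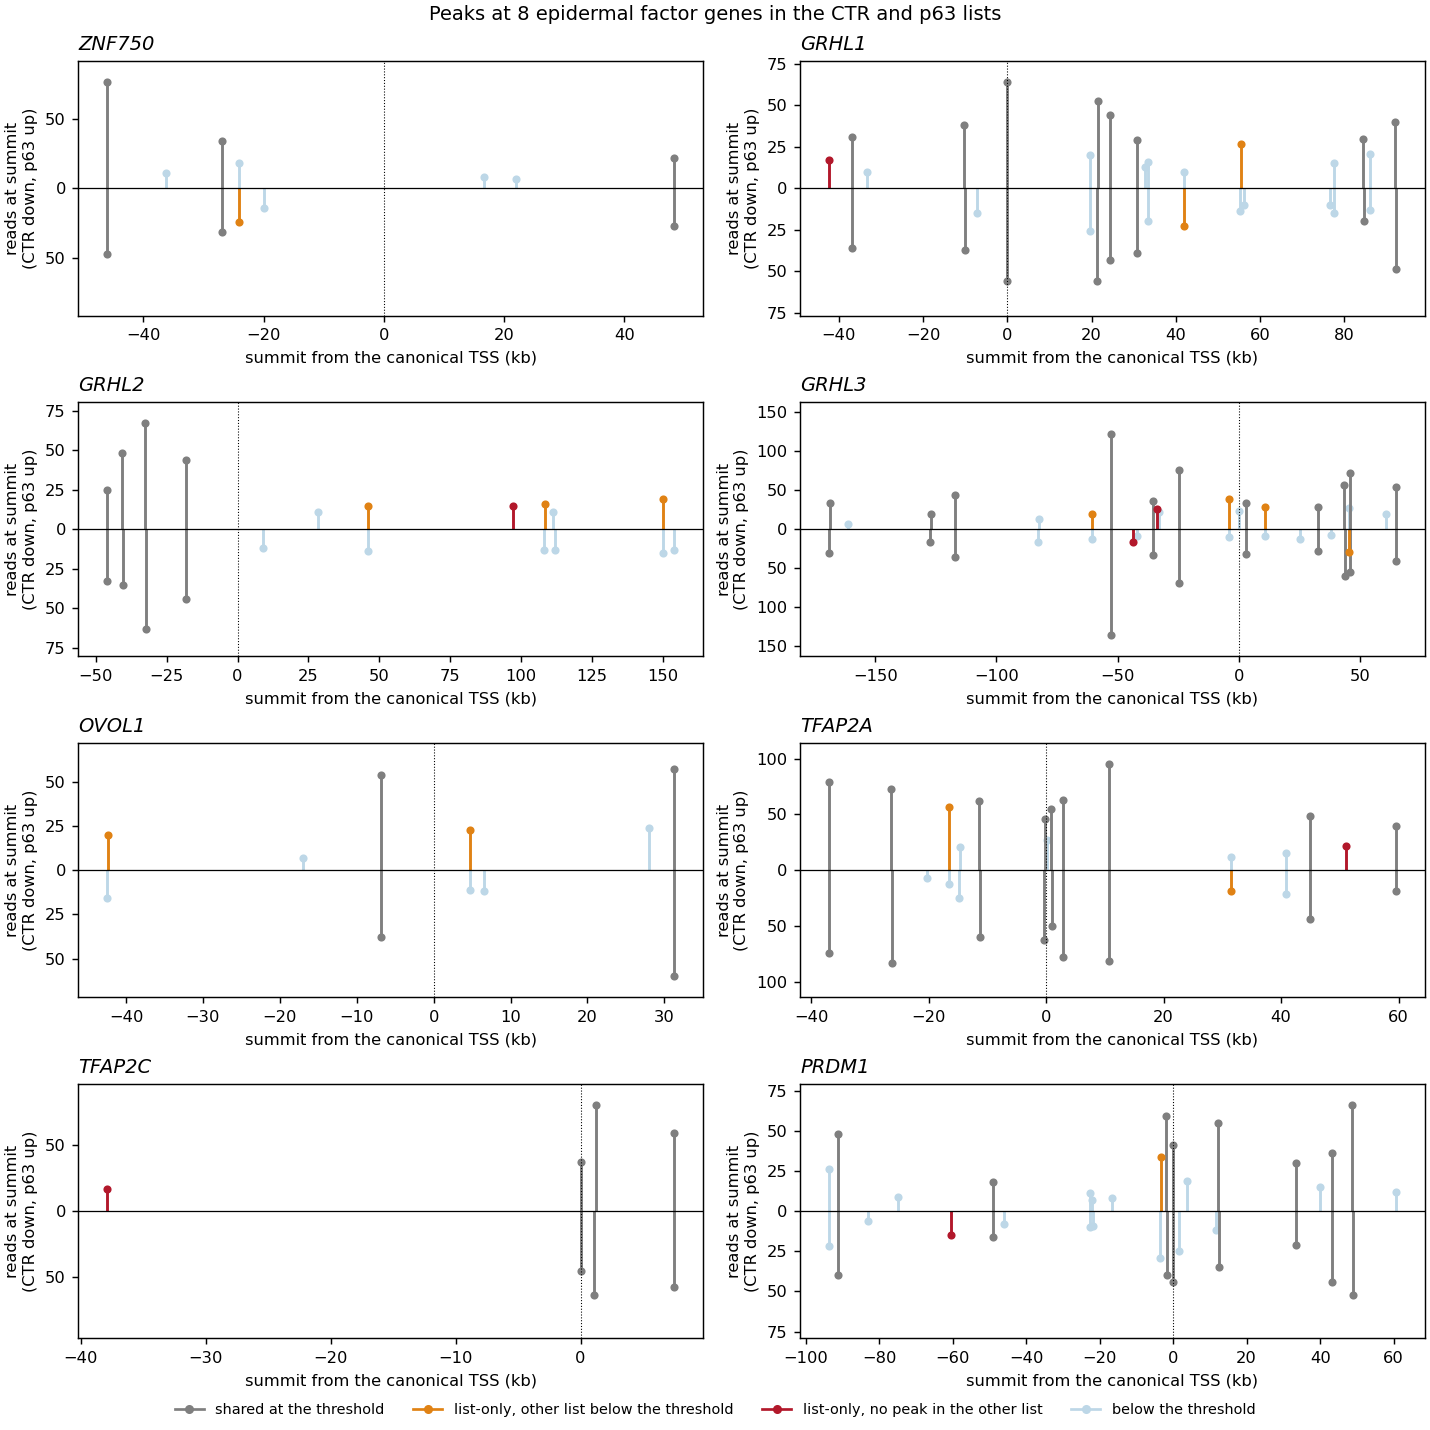
Position and height of every deposited peak at the 8 genes. The x axis gives the distance of the summit from the canonical TSS in kb in the direction of transcription (dotted line at 0), and the y axis the reads at the summit, upwards for the p63 list and downwards for the CTR list. Most regions mirror each other, and the p63-only regions are low in comparison, apart from one 16.5 kb upstream of TFAP2A with 57 reads.

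Where a region had a peak in both lists, its heights were compared, each at the summit of its own list. The summits of a matched region can lie at different positions. Of 63 matched regions at the 8 genes that reached the threshold in at least 1 list, the median p63/CTR ratio of the pileups was 1.15, against 1.05 over all 62115 such regions. For the 48 shared regions the median was 1.13, with a range from 0.763 to 2.20, and 1.05 over the list. For the 11 p63-only regions with a CTR peak it was 1.53, below the 1.69 of all such regions. A ratio of 2 or more was reached by 6 of the 63 regions, beside 5.61% of all matched regions, and these were 2 at TFAP2A, 2 at GRHL3, 1 at OVOL1 and 1 at GRHL1. Only 1 of the 63, at GRHL1, was lower by as much, beside 1.67% of all matched regions. Ratios of 4 or more were found at TFAP2A and GRHL3 and in 0.626% of all matched regions.

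**Figure D3:**
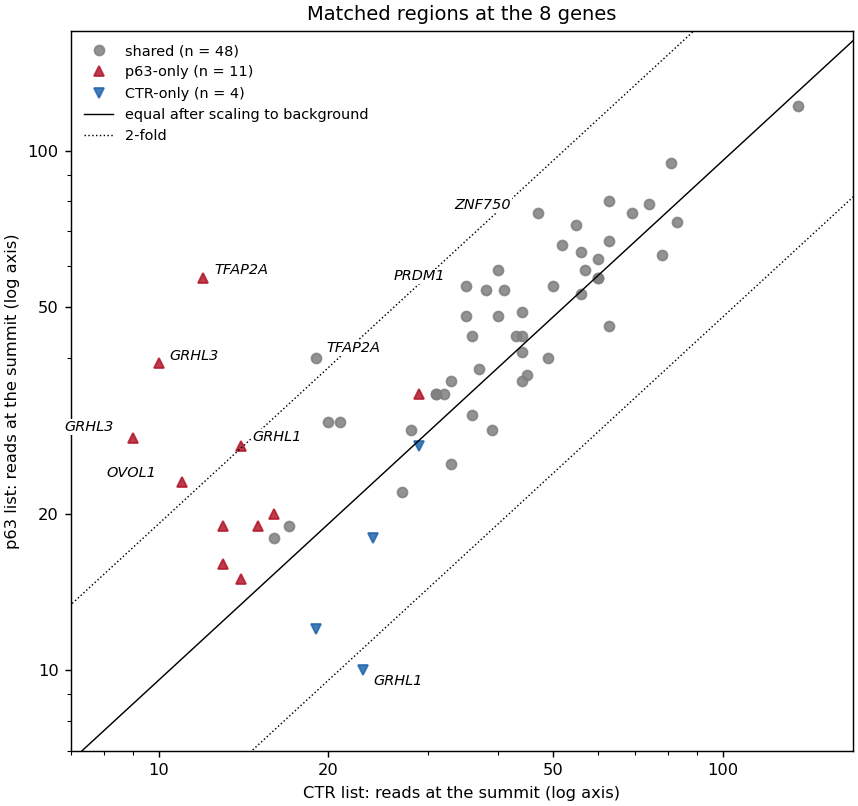
Reads at the summit of the 63 matched regions of the 8 genes in the CTR list (x axis) and in the p63 list (y axis), both on log axes. Each point is a region, the solid line marks equal heights after scaling to the background coverage, and the dotted lines mark a 2-fold difference. The regions labelled TFAP2A and GRHL3 at 57 and 39 p63 reads lie farthest above the line.

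Among the factors of terminal differentiation, ZNF750 (ENSG00000141579.7, chr17:82829434-82840022, minus strand) showed no p63-only region. The gene lies within intron 13 of TBCD on the other strand, and every peak assigned to it lay in an intron of TBCD. Its tallest region, 46.1 kb upstream at chr17:82885959-82886478 and 64 bp from a TSS of TBCD, was shared and higher in p63, with 76 reads against 47 and a ratio of 1.69 (95% interval 1.16 to 2.48). The other 2 shared regions had 34 against 31 reads at 27 kb upstream and 22 against 27 reads at 48.3 kb downstream of the start. The CTR-only region 24.1 kb upstream had 24 reads in CTR and 18 in p63, and a ratio of 0.783 (0.401 to 1.51), so the heights could not be told apart at this depth. No peak of either list covered the TSS of ZNF750 itself. Weak p63 peaks without a CTR peak lay 36.3 kb upstream (11 reads, −log10 q 6.38), and 16.7 and 22 kb downstream (8 and 7 reads, −log10 q 3.56 and 2.71). A weak CTR peak without a p63 peak lay upstream as well, nearer to the gene than the CTR-only region, with 14 reads and a −log10 q of 6.49. The p63 peak with 8 reads, beyond the 3′ end of ZNF750, held the site of 3 mismatches shown above.

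PRDM1 (ENSG00000057657.17, chr6:105993463-106109939, plus strand) had 9 regions in each list, 8 of them shared. Its p63-only region, 3.4 kb upstream at chr6:106082655-106083040, had 34 reads in p63 and 29 in CTR, where the −log10 q was 8.37 against 10.5, and of all p63 regions at the 8 genes it lay closest to the threshold. The ratio of 1.22 (0.724 to 2.08) did not separate the heights. Of the 8 shared regions of PRDM1, 5 had a larger ratio than this one and 3 a smaller one. At 12.3 kb downstream of the canonical TSS (chr6:106098089-106098986), in intron 3 of 6 and 22 bp from an alternative TSS of PRDM1, 55 reads were found in p63 and 35 in CTR, a ratio of 1.64 (1.06 to 2.58). This region held the p63 site of 1 mismatch, the best match within 100 bp of a summit among the regions of the 8 genes. The CTR summit of the region lay at 12.5 kb, with no site within 100 bp. The ratio thus compares heights at different positions, and the CTR height at the site is not known. At 1.8 kb upstream the reads were 59 and 40, with a ratio of 1.54 (1.01 to 2.36). The region over the canonical TSS had 41 reads in p63 and 44 in CTR, and the region of the highest −log10 q, 48.8 kb downstream, had 66 and 52. A CTR-only region with no p63 peak lay 60.5 kb upstream, with 15 reads and a −log10 q of 10.3.

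Of the Grainyhead-like genes, GRHL1 (ENSG00000134317.18, chr2:9951693-10002277, plus strand) was the only one with a region over its canonical TSS. It was the tallest region of the gene in the p63 list and shared the greatest height in the CTR list with a region 21.3 kb downstream, with 64 reads in p63 and 56 in CTR and a ratio of 1.19 (0.821 to 1.74). A p63-only region 55.4 kb downstream of the start and beyond the 3′ end of the gene (chr2:10006702-10007311), in the intron of the lncRNA ENSG00000289033, had 27 reads in p63 and 14 in CTR. Its ratio was 2.01 (1.02 to 4.16), and its −log10 q was 19.6 against 7.28. The other p63-only region, 42.4 kb upstream in intron 9 of TAF1B (chr2:9909160-9909422), had 17 reads, a −log10 q of 13 and no CTR peak. In the opposite direction, a region in intron 12 of GRHL1, 42.0 kb downstream of the start (chr2:9993499-9993849), was CTR-only. It had 23 reads in CTR and 10 in p63, a ratio of 0.454 (0.193 to 0.992). GRHL1 thus held regions that differed by about 2-fold in either direction, each with an interval that came close to 1.

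GRHL2 (ENSG00000083307.12, chromosome 8, plus strand) had 4 regions in CTR and 8 in p63. The 4 shared regions lay 18.0 to 46.1 kb upstream of the gene, and the tallest of them, 32.5 kb upstream, had 67 reads in p63 and 63 in CTR. All 4 p63-only regions lay inside the gene, in introns 1, 7, 8 and 12 of 15, and were among the weakest above the threshold. At 46.0, 108.3 and 150.1 kb downstream of the start the p63 reads were 15, 16 and 19 and the CTR reads 14, 13 and 15. Their ratios were 1.12 (0.504 to 2.50), 1.29 (0.580 to 2.91) and 1.32 (0.637 to 2.80), and all 3 intervals held 1. The CTR peaks of these 3 regions had a −log10 q between 7.45 and 9.25, just below the threshold. The region at 97.0 kb had 15 reads, a −log10 q of 10.7 and no CTR peak, and its best p63 site had 4 mismatches. No peak covered the canonical TSS in either list.

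GRHL3 (ENSG00000158055.17, chr1:24199558-24364482, plus strand) had the most regions, 13 in CTR and 15 in p63, and its longest transcripts start far upstream of the canonical TSS at position 24319357. The tallest region of the 8 genes lay here, 52.8 kb upstream of that TSS, with 122 reads in p63 and 136 in CTR and a ratio of 0.937 (0.728 to 1.21). A pair of p63-only regions flanked the canonical start. The one 3.8 kb upstream (chr1:24315305-24315803), in an intron of the antisense lncRNA GRHL3-AS1, had 39 reads in p63 and 10 in CTR, a ratio of 4.07 (2.0 to 9.15), with a −log10 q of 26.3 against 4.96. The one 11 kb downstream (chr1:24329967-24330536), in intron 1 of 15, had 28 reads in p63 and 9 in CTR, a ratio of 3.25 (1.49 to 7.83), with a −log10 q of 17.7 against 2.70. Neither held a p63 site within 100 bp of the summit. Between them, at 0.3 kb downstream of the start, a p63 peak below the threshold had 24 reads, a −log10 q of 8.34, no CTR peak and a site of 3 mismatches.

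Farther upstream of GRHL3, a p63-only region without a CTR peak lay 33.7 kb from the canonical TSS (chr1:24285291-24285711), with 26 reads and a −log10 q of 11.5. It held a site of 1 mismatch, but more than 100 bp away from the summit, so that it did not count among the 3 regions with a site. The fourth p63-only region, 60.5 kb upstream, had 19 reads in p63 and 13 in CTR and a ratio of 1.53 (0.715 to 3.36). The 2 CTR-only regions lay 43.7 kb upstream (17 reads, −log10 q 12.1, no p63 peak) and 45.4 kb downstream in intron 7 of STPG1. The latter had 29 reads in CTR and 27 in p63, a ratio of 0.973 (0.554 to 1.70), and was the control region nearest to the threshold.

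OVOL1 (ENSG00000172818.10, chr11:65787063-65797214, plus strand) had 2 regions in CTR and 4 in p63. The p63-only region in intron 1 of 3, 4.7 kb downstream of the start (chr11:65791576-65792352), had 23 reads in p63 and 11 in CTR. The ratio was 2.18 (1.02 to 4.96) and the −log10 q was 11.4 against 3.85. Besides the p63 site of 2 mismatches, it was the only p63-only or shared region of these genes with the Grainyhead motif AACCNGTT near its summit, a motif held by 1.5% of all p63-only regions. The other p63-only region, 42.4 kb upstream (chr11:65743689-65744856), had 20 reads in p63 and 16 in CTR and a ratio of 1.31 (0.643 to 2.69). The shared regions lay 6.9 kb upstream, with 54 reads in p63 and 38 in CTR (ratio 1.48, 0.962 to 2.31), and 31.3 kb downstream, with 57 and 60. The canonical TSS had no peak in either list.

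TFAP2A (ENSG00000137203.15, chr6:10393186-10419659, minus strand) showed the largest p63/CTR ratio of the 8 genes. This region, 16.5 kb upstream of the canonical start in intron 1 of the lncRNA LINC00518 (chr6:10431322-10431803), had 57 reads and a fold enrichment of 9.34 in p63, and 12 reads and a fold enrichment of 3.48 in CTR. The ratio was 4.96 (2.63 to 10.2) and the −log10 q was 36.0 against 3.25. Its summit lay 32 bp from the centre of the p63 site of 2 mismatches, and the TEAD motif CATTCC and the AP-2 motif GCCNNNGGC were found within 100 bp of the summit as well. Downstream of the gene, 51.0 kb from the start (chr6:10363978-10364429), a p63-only region had 22 reads, a −log10 q of 19.1 and no CTR peak, and held an AP-1 motif but no p63 site. A shared region farther on, at 59.6 kb (chr6:10355185-10355850), was higher in p63, with 40 reads against 19 and a ratio of 2.20 (1.24 to 4.02). No other shared region of the 8 genes reached 2-fold, and 2.11% of all shared regions did.

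The other shared regions of TFAP2A differed less. The tallest in the p63 list, 10.7 kb downstream of the start, had 95 reads in p63 and 81 in CTR, and those of the highest −log10 q, 26.4 and 37.0 kb upstream, had 73 against 83 and 79 against 74. Around the canonical TSS the CTR list had a region of 63 reads. In the p63 list the matching region of 46 reads had its summit 0.2 kb upstream and ended short of the TSS (ratio 0.763, 0.510 to 1.13), a separate peak of 27 reads below the threshold lay on the other side of the TSS, and no peak covered it. A CTR-only region 31.4 kb downstream had 19 reads in CTR and 12 in p63 (ratio 0.660, 0.292 to 1.43).

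TFAP2C (ENSG00000087510.7, chr20:56629306-56639283, plus strand) was the member with the fewest peaks, 3 in CTR and 4 in p63, all of them above the threshold. The p63-only region, 37.9 kb upstream in intron 4 of the lncRNA LINC01716, had 17 reads, a −log10 q of 11.6 and no CTR peak. The shared regions had 37 reads in p63 and 45 in CTR over the TSS (ratio 0.859, 0.541 to 1.36), 80 and 63 at 1.2 kb downstream (1.33, 0.942 to 1.88), and 59 and 57 at 7.5 kb downstream (1.08, 0.739 to 1.58). All 3 intervals held 1.

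A region lay over the canonical TSS at 4 of the 8 members in CTR (GRHL1, TFAP2A, TFAP2C and PRDM1) and at 3 in p63 (the same without TFAP2A). Of all protein-coding genes, 56.7% had one in CTR and 56.6% in p63. No member gained a region over its canonical start in the p63 list. Of the 6 differences of 2-fold or more towards p63, 4 had a lower bound of 1.24 or more, namely TFAP2A at 16.5 kb upstream (2.63) and 59.6 kb downstream (1.24) and GRHL3 at 3.8 kb upstream (2.0) and 11 kb downstream (1.49). For OVOL1 and GRHL1 the lower bounds were 1.02 each. These 6 were picked as the largest of 63 ratios, and 5 of them were p63-only. That class asks that no CTR region reaches the threshold, which favours ratios above 1. The bounds allow for neither choice, so they do not test the differences.

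The p63 site was found within 100 bp of the summit in 3 of the 16 p63-only regions, at OVOL1, TFAP2A and TFAP2C. Of all p63-only regions 11.4% held one. It was found in 2 of the 48 shared regions of the p63 list, beside 1.39% of all shared regions, and in 0 of the 6 CTR-only regions, beside 0.503%. Among p63 peaks below the threshold 4 of 33 held a site, of which GRHL3 had 2 and ZNF750 and PRDM1 had 1 each, beside 4.17% of all such peaks. Among CTR peaks below the threshold 3 of 37 held one, beside 0.902% of all, and these were the peaks at OVOL1, TFAP2A and PRDM1 that overlap p63 peaks with a site. Both regions at these genes with a site of 2 mismatches within 100 bp of the summit were p63-only, as were 78.6% of all such regions. The region with a site of 1 mismatch at PRDM1 was shared, beside 84.4% p63-only among all. Farther from the summit, sites of 2 mismatches lay in shared regions at GRHL2 (46.1 kb upstream), PRDM1 (91.3 kb upstream) and OVOL1 (31.3 kb downstream). The site of 1 mismatch that lay as far off at GRHL3 was in a p63-only region. No share over all regions is given for sites outside the window.

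Other motifs were counted in the same windows on both strands, and 1 stretch could count for more than 1 motif. The AP-1 motif TGANTCA was present in 5 of the 16 p63-only regions (GRHL1, GRHL2, TFAP2A and PRDM1) and in 21 of the 48 shared ones, beside 29.4% and 33.5% over the p63 list. The KLF motif GGGNGNGGC was present in 0 of 16 and in 10 of 48, beside 9.88% and 14.9%. CATTCC was present in 1 and 11 regions (18.0% and 18.4% over the list), GCCNNNGGC in 2 and 7 (8.4% and 13.0%), and AACCNGTT in 1 and 0 (1.5% and 1.01%). Counts over 16 regions are too small to set the p63-only regions of these genes apart from those of the whole list.

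In the RefSeq promoter sequences (GRCh38, 250 bases before to 50 after a start), which matched all members but GRHL2 and gave PRDM1 with 2 starts, a p63 site was found at GRHL3 only. Of all 35116 promoters 1.12% held one. The KLF motif was found at GRHL1, TFAP2A and both starts of PRDM1, and in 30.6% of all promoters.

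For comparison, 20 other transcription factors of the epidermis had 98 regions in the p63 list, of which 29 were p63-only, or 29.6% (21.5 to 39.3). At least 1 was found at 12 of the 20 genes, beside 14 of the 20 mesenchymal factors below and 58.2% of protein-coding genes. POU2F3, a factor of suprabasal keratinocytes, had 5, the epithelial ETS factors EHF and ELF3 had 4 each, and BNC1, HOPX and PITX1 had 3 each. A list of 20 mesenchymal factors had 176 regions, of which 34, or 19.3% (14.2 to 25.8), were p63-only, led by RUNX1 (10), TCF4 (7), PRRX2 (3), OSR2, TCF21 and TWIST1 (2 each). The intervals of the 3 lists overlapped each other, and each held the 23.9% of the whole list. CTR-only regions made up 12.7% (7.02 to 21.8) at the other epidermal factors and 15.3% (10.7 to 21.5) at the mesenchymal factors, where RUNX1 had 10, TCF4 had 4 and FOXF1 had 3.

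**Figure D4:**
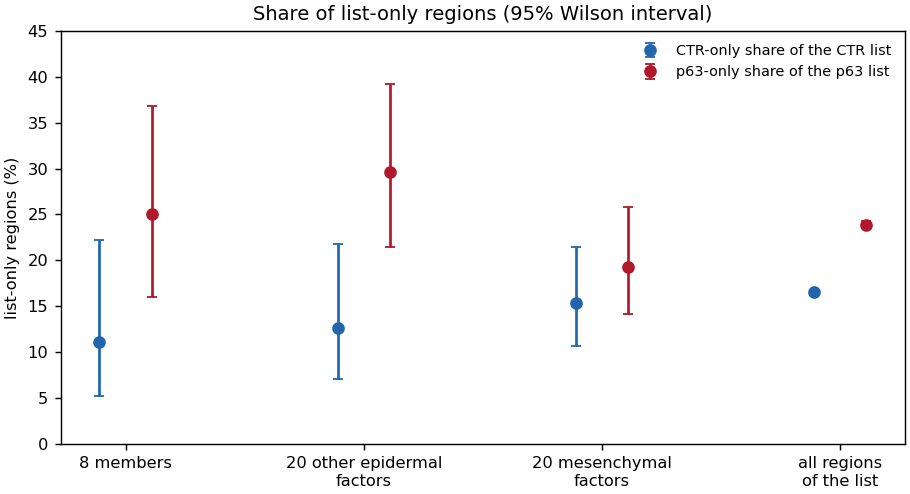
Share of list-only regions in percent (y axis) among the regions of the 8 genes, of 20 other epidermal factors, of 20 mesenchymal factors and of the whole list, for the CTR list (blue) and the p63 list (red). Points are shares and bars are 95% Wilson intervals for counting error. For the 8 genes 25% of p63 regions and 11.1% of CTR regions were list-only, and the intervals of the 3 gene lists held the share of the whole list.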

How the data were processed

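ATAC-seq of 4 samples in 2 groups of 2 (CTR and p63) was analysed from 1 deposited peak list per group, in narrowPeak form. The authors mapped reads to hg38 with Bowtie2 2.3.4.3 and called peaks with MACS2 on both replicates of a group. The submitters' processing notes name the same tools, and the MACS2 version, duplicate removal and the shift of reads for the transposase are not given in the sources used here. In these deposited lists each peak has a fold enrichment (the ratio of the summit pileup to the local background, each with 1 read added, as the values show), a −log10 p-value and a −log10 q-value, with the offset of the summit. The values are not scaled between groups.

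Peaks on chromosomes 1 to 22, X and Y were analysed with python 3.11.15, numpy 2.4.6, pandas 2.3.3, scipy 1.17.1 and pysam 0.24.0, with own code for overlaps (at least 1 bp). Genes came from GENCODE release 44, and the distance to a gene refers to the start of its canonical transcript. A whole pileup and its local background were solved from the fold enrichment and −log10 p of each peak, which succeeded for 99.984% of CTR and 99.986% of p63 peaks within 0.02 of −log10 p. The number of sequenced reads is not given in the lists, and depth enters here through the background coverage and the pileups. Ratios of pileups were scaled by the background coverage and carry exact conditional 95% intervals from both read numbers. A region was matched to the overlapping peak of the other list. The scripts were tested on simulated data. No p-value was computed, since peaks of a list cannot stand for replicates.

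All 8 members are named, each with its list-only regions, the region at its canonical TSS and its shared regions of the highest −log10 q, and from both comparison lists the 5 genes with the most p63-only regions (ties by symbol, with the tied genes PITX1 and TWIST1 named after their values were seen) and those with 3 or more CTR-only regions. Further shared regions and peaks below the threshold, and their sequences, were chosen after their values were seen. Sequences were read from GRCh38, within 50 bp of a summit or extended to hold the site, and cut to 30 bases where they met an annotated UTR. The sequence of the p63-only region of TFAP2C is not reported here. The members, gene lists, motifs and threshold were chosen with earlier results of these data known.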

Additional observations from a re-analysis of the deposited data

How the results depend on the processing

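No paired analysis was possible because each group has a single list with no value per replicate, which per the methods was called from both replicates although its peak names leave this unsettled, and for the same reason no replicate could be left out. Of 64 alternatives, 44 kept their result within 1.5 times the main count, or within the interval of the share, and 20 did not. With all deposited peaks, CTR-only regions at the 8 genes numbered 16 of 91 instead of 6 of 54. The share over the whole CTR list was 21.4% instead of 16.5%. The p63-only regions numbered 47 of 157 instead of 29 of 98 at the other epidermal factors. At the mesenchymal factors they numbered 73 of 323 instead of 34 of 176, beside 27.1% instead of 23.9% of the whole p63 list. With the threshold raised to 20, there were 9 p63-only regions at the 8 genes instead of 16, or 22.5% beside 24.6% of the whole p63 list. They lay at 3 members instead of 7, and 1 of them held a p63 site instead of 3. At this threshold there were 16 at the other epidermal and 20 at the mesenchymal factors. Counting only regions without any deposited peak in the other list gave 5 p63-only regions, 1 of them with a site. These were 7.81% of the regions instead of 25%, beside 12.0% of the whole p63 list. It gave 2 CTR-only regions of 54, beside 3.29% of the whole CTR list, and 13 and 17 p63-only regions at the comparison lists. With equal numbers of top-ranked peaks there were 9 p63-only regions (15.8%, beside 20.7% of the whole p63 list), 1 of them with a site. Within 100 kb of a TSS the other epidermal factors had 51. A call that asks for absence or at least 2-fold more reads, chosen after seeing the data, gave 3 CTR-only regions and 22 p63-only regions at the mesenchymal factors, and at the 8 genes 11 p63-only regions, or 17.2% beside 17.6% of the whole list. These alternatives differ by construction in how many regions they admit, and no further cause was tested. For every p63-only region of the 8 genes with 15 to 20 reads and a CTR peak, the interval of the ratio held 1, so a difference was not detectable at this depth.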
